A study of Homo sapiens with 6 samples.

Results

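The proteasome is the protease complex that degrades ubiquitin-tagged proteins in the cytosol and nucleus of human cells. The genes described here are those whose symbol is PSM, a letter from A to G and a number with nothing after it. That rule found 47 genes among the 17318 listed in every file, and 46 of them passed a filter of a mean of at least 1 FPKM (fragments counted per gene, divided by transcript length and by the size of the library) over the 6 libraries. PSMB11, which encodes the catalytic subunit of the thymus-specific proteasome, was the exception, at 0, 0.03 and 0 FPKM in the siOXTR libraries, against 0, 0 and 0 FPKM in the siControl libraries. The files hold 7 PSMA, 11 PSMB, 6 PSMC, 14 PSMD, 4 PSME, 1 PSMF and 4 PSMG genes.

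RNA was measured in SNU216, an established human gastric cancer cell line, 48 h after transfection with siOXTR, which targets OXTR, the gene of the oxytocin receptor (3 libraries), or with the control siRNA siControl (3 libraries). Both groups are thus 1 cell line and both carry the transfection, and all cells were grown in RPMI1640 with fetal bovine serum. Nothing in the labels states that the 3 libraries of a group are separate cultures. The p-values below thus measure the spread among these libraries only, and that spread may be technical. OXTR was at 4.76, 4.65 and 5.34 FPKM in the siOXTR libraries, against 39.4, 38.9 and 39.0 FPKM in the siControl libraries (log2 fold change -2.76, SE 0.0606, adjusted p = 6.39e-11, limma), and the groups were far apart.

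As background, a barrel of stacked alpha and beta rings forms the core particle, and the beta ring holds the proteolytic sites. A regulatory particle caps the barrel: its base carries a ring of ATPases that unfold substrates, and its lid removes ubiquitin. PSMA genes encode the alpha ring, PSMB genes the beta ring, PSMC genes the ATPases, PSMD genes the other base and lid subunits with 3 assembly chaperones, PSME genes alternative activators, PSMF1 the regulator PI31, and PSMG genes chaperones of core assembly. The immunoproteasome swaps the constitutive catalytic subunits PSMB5, PSMB6 and PSMB7 for PSMB8, PSMB9 and PSMB10, is induced by interferon gamma, and is known for producing peptides for MHC class I. The transcription factor NFE2L1, which is inserted into the endoplasmic reticulum membrane and released by processing, is known to raise proteasome gene transcription when proteasome activity falls.

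Promoter sequence was examined because the members moved together and because NFE2L1 and its relative NFE2L2, which bind the antioxidant response element, changed in opposite directions (values given with the regulators). RefSeq promoter windows (GRCh38.p14), cut to the 250 bases before each start, were found for 41 of the 47 genes in 50 windows, since some genes have several starts. PSMA7, PSMB1, PSMB6, PSMB7, PSMD4 and PSMG3 were not matched. The core of that element, TGACNNNGC on either strand, was present in 13 member windows (26%), against 10.9% of all 35116 windows. The 13 genes with it were PSMA4, PSMB3, PSMB9, PSMC5, PSMD3, PSMD5, PSMD9, PSMD12, PSME1, PSME2, PSME4, PSMG1 and PSMG2. Of these, only PSMA4, PSMC5, PSMD9 and PSME2 were called higher after the TMM scaling described below. Among all 46 tested members, 27 were. A relation between the match and the change in RNA was not tested. Sequences are shown for the abundant genes PSMB3, PSMD3 and PSME1, for PSMD12, for PSMB9 because its start faces that of TAP1, and for PSMD5 and PSMG2 because their RNA did not pass the test below. Each is written 5′ to 3′ on the strand of its gene, with the TGACNNNGC match in capitals, and was trimmed to the longest stretch outside annotated untranslated and coding exons (GENCODE release 29, GRCh38).
PSMB3: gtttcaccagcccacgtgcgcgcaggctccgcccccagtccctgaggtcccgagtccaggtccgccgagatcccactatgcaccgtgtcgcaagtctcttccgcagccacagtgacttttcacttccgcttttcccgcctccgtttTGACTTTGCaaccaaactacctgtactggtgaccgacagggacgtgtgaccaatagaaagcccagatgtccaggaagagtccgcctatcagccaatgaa
PSMB9: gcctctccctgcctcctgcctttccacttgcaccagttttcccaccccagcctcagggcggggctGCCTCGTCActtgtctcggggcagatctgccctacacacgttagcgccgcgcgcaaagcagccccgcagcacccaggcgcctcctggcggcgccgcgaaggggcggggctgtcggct
PSMD3: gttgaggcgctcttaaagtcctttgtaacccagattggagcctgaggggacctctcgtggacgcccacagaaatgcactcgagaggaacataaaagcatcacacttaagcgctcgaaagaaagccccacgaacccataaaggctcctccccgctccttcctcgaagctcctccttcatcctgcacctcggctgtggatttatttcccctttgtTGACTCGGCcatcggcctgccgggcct
PSMD5: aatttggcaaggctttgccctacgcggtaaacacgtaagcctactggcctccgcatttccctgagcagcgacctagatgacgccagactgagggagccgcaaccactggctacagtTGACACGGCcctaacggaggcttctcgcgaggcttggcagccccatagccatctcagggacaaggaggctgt
PSMD12: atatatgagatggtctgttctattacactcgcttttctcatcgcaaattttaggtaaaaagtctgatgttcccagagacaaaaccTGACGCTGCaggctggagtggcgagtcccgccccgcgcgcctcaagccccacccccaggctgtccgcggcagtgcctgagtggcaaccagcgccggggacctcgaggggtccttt
PSME1: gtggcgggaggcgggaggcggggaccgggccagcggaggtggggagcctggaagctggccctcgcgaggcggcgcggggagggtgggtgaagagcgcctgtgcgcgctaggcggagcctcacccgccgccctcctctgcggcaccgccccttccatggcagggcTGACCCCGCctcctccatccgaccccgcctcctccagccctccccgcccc
PSMG2: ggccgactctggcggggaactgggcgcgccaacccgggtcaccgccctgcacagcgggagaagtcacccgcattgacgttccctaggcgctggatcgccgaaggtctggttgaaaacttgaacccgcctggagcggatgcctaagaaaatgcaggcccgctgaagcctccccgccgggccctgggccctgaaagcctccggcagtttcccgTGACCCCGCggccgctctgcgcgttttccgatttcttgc
These stretches lie at chr17:38752491-38752735 (plus strand), chr6:32853979-32854160 (plus), chr17:39980557-39980796 (plus), chr9:120842985-120843172 (minus), chr17:67366628-67366827 (minus), chr14:24135944-24136157 (plus) and chr18:12658488-12658737 (plus). In PSMB9 the match reads on the opposite strand of the gene, and in the other printed genes on the strand of the gene.

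Other letter strings were searched on both strands in the same windows. The CCAAT box (CCAAT, bound by NF-Y) was present in 19 member windows (38%) and 32.0% of all windows. The core of the interferon-stimulated response element, GAAA, any 2 bases and GAAA, was present in 5 member windows (10%) and 3.02% of all windows, and the genes were PSMB10, PSME2, PSMA4, PSMB4 and PSMG4. The gamma-activated site core TTCNNNGAA was present in 6 member windows (12%) and 6.57% of all windows, PSMB8 and PSMB5 among them. The ETS core CCGGAA was present in 17 member windows (34%) and 14.5% of all windows, and the cyclic AMP response element core CGTCA, which can overlap TGACNNNGC, in 16 member windows (32%) and 21.2% of all windows. The AP-1 site TGACTCA, which can also overlap it, and the E-box CACGTG were each in 3 member windows, against 4.20% and 6.34% of all windows, and the ETS string GGCGGAAGT was in 2, against 0.723%. The amino acid response element core TGATGNAA and the heat shock element (TTC, GAA and TTC, each 2 bases apart) were in 0 member windows, against 3.14% and 0.441% of all windows. A match is a description of the letters only.

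FPKM summed to between 446246 and 459595 in the siOXTR libraries and between 417829 and 434167 in the siControl libraries (sequencing depth is unknown). The epithelial markers EPCAM, KRT8, KRT18, KRT19, CDH1 and CLDN4 summed to between 8053 and 8218 FPKM in siOXTR and between 7016 and 8089 FPKM in siControl. Blood markers, which matter here because blood cells carry much immunoproteasome, were measured for 5 of 6 genes and summed to between 2.10 and 3.02 FPKM in siOXTR and between 2.19 and 2.53 FPKM in siControl. Fibroblast markers (5 of 6) summed to between 0.610 and 0.810 FPKM in siOXTR and between 1.62 and 2.02 FPKM in siControl. Endothelial markers (3 of 4) summed to between 0.390 and 0.620 FPKM in siOXTR and between 0.590 and 0.960 FPKM in siControl, and no listed marker was at 0 in all 6 libraries. In bulk RNA, a change in the number of cells of one kind and a change in RNA per cell cannot be told apart.

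Proteasome genes were higher as a body in siOXTR cells. Of the 46 tested members, 43 rose and 0 fell (limma on log2(FPKM + 1), adjusted p under 0.05), and PSMD5, PSMD13 and PSMG2 did not pass. Among all 11550 tested genes 42.2% were called higher and 17.6% lower, so the share of members called higher, 93.5%, was above the background. The changes were small. The median log2 fold change of the members was 0.34, between 0.0062 for PSMG2 and 0.53 for PSMB10, beside 0.13 for all tested genes, and the highest ratio of group means was 1.44-fold, for PSMB10. All 3 siOXTR libraries lay above all 3 siControl libraries in 43 members, as they did in 45.2% of tested genes. The summed FPKM of the 46 members made up 1.46%, 1.47% and 1.51% of all FPKM in the siOXTR libraries, against 1.24%, 1.25% and 1.27% in the siControl libraries. With 0 members lower by limma at the adjusted threshold, none was lower at an unadjusted p under 0.05 either, since every member had a positive log2 fold change as deposited.

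**Figure D1:**
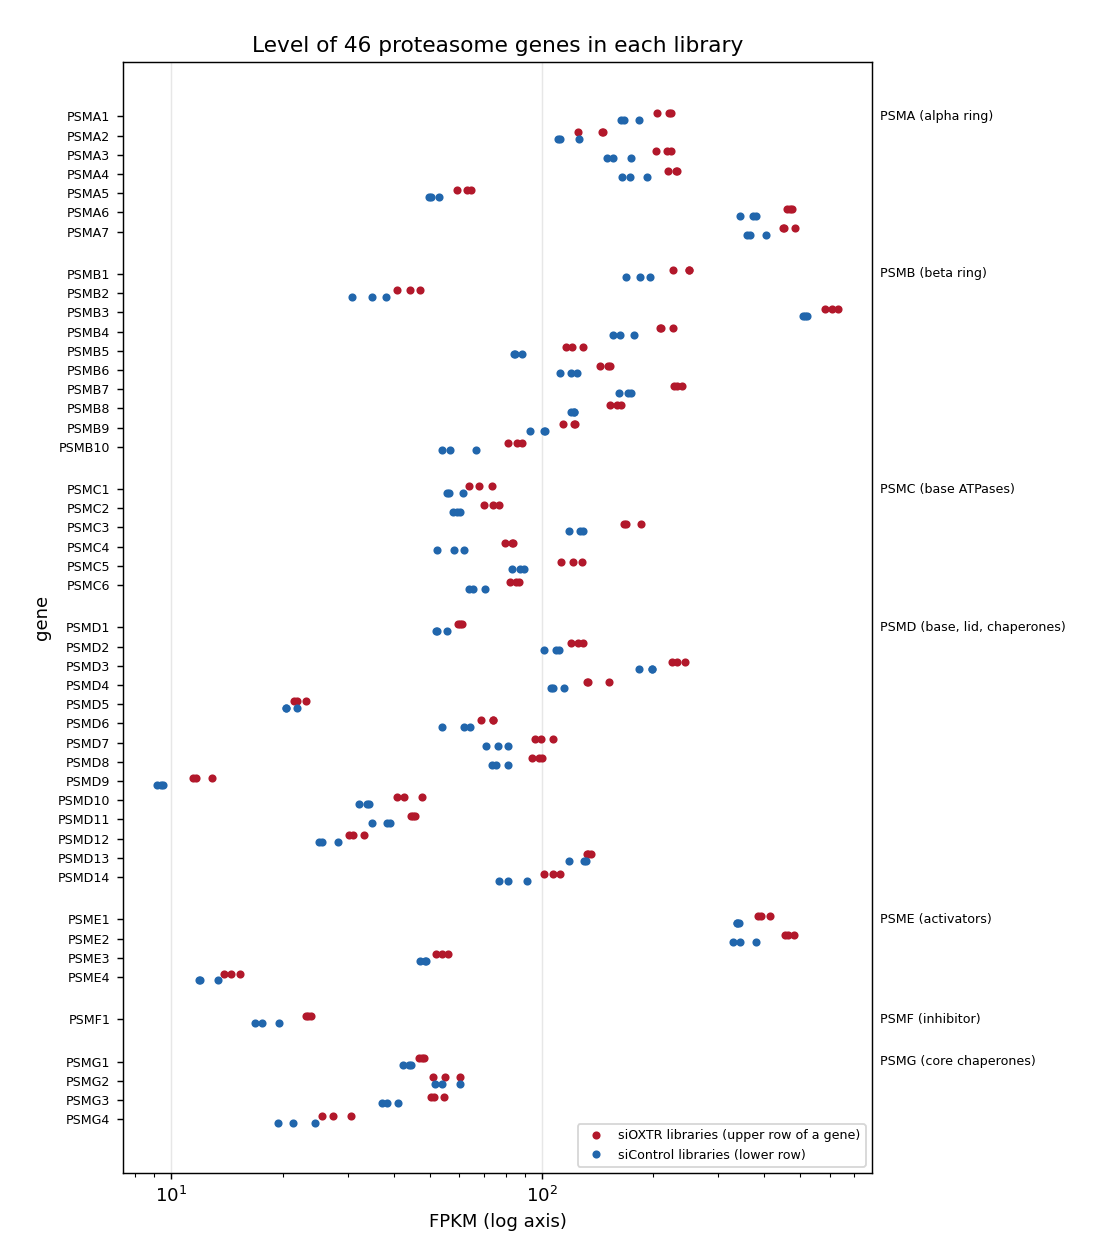
FPKM of the 46 tested proteasome genes in each library, on a log axis, grouped by letter class. Each gene has the 3 siOXTR libraries as red points on its upper row and the 3 siControl libraries as blue points on its lower row; the groups overlap only in PSMA2, PSMD5 and PSMG2, and PSMB3 is the most abundant member.

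How much of this rise is seen depends on the scaling between libraries. Scaling by the trimmed mean of M values (TMM), which sets the bulk of genes level, gave the tested genes as a whole a median log2 fold change of 0.013 in place of 0.13, a shift of -0.12. After it 27 members (58.7%) were higher and 0 lower, against 19.1% higher and 24.5% lower among all tested genes, and all 27 were among the 43. The siOXTR libraries then lay above the siControl libraries without overlap in 32 members and in 24.9% of tested genes. The median of the members was then 0.21, and the log2 fold changes of PSMD5, PSMD13, PSMG1 and PSMG2 were below 0 without passing the test. The 16 members that lost their call were PSMA2, PSMA7, PSMB3, PSMB9, PSMC1, PSMD1, PSMD2, PSMD3, PSMD6, PSMD11, PSMD12, PSME1, PSME3, PSME4, PSMG1 and PSMG4. Of the genes below, the catalytic subunits PSMB5, PSMB6, PSMB7, PSMB8 and PSMB10 and the ATPase genes other than PSMC1 kept theirs.

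**Figure D2:**
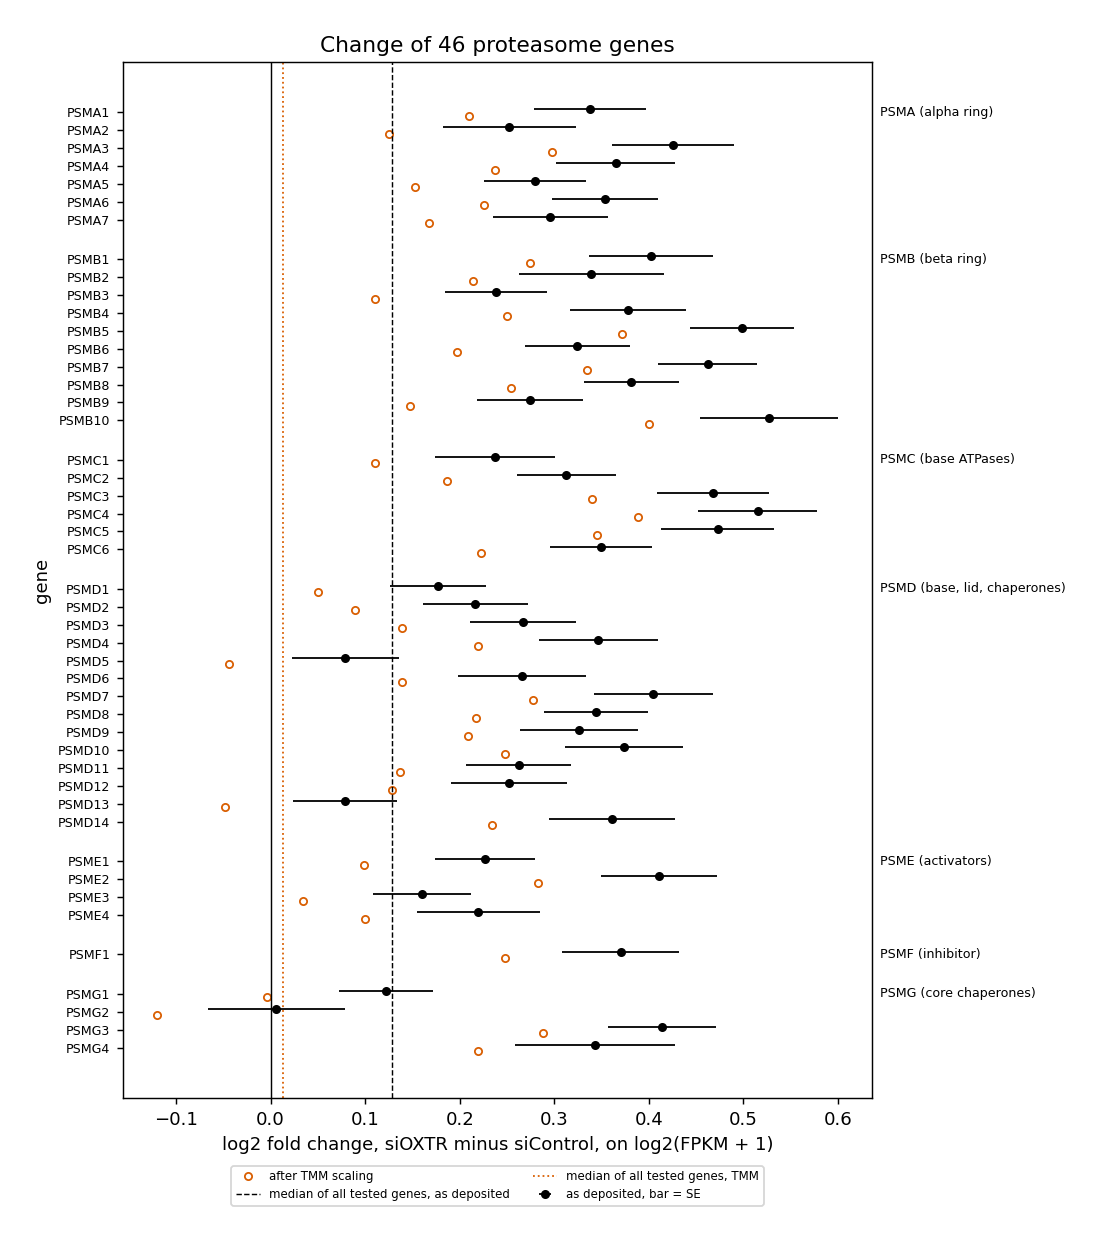
Log2 fold change of each proteasome gene, siOXTR minus siControl, on log2(FPKM + 1), as deposited (black, bar = SE) and after TMM scaling (open orange), with the medians of all tested genes as vertical lines. The members run from 0.0062 to 0.53 as deposited, and PSMD5, PSMD13, PSMG1 and PSMG2 are below 0 after TMM scaling.

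The alpha ring genes rose together. All 7 PSMA genes passed the test, against 42.2% of all tested genes called higher, with a median log2 fold change of 0.34. After TMM scaling 5 of them were higher (71.4%, against 19.1% of all tested genes). PSMA3, a ring subunit that many partner proteins are known to bind, had the largest difference of the class, with 204, 219 and 224 FPKM in the siOXTR libraries, against 156, 151 and 174 FPKM in the siControl libraries (log2 fold change 0.43, SE 0.0645, adjusted p = 0.000167, limma). PSMA2 had the smallest, with 126, 146 and 145 FPKM in the siOXTR libraries, against 111, 112 and 126 FPKM in the siControl libraries (log2 fold change 0.25, SE 0.0706, adjusted p = 0.0088, limma). In PSMA2 the lowest siOXTR library fell just under the highest siControl library, whereas the groups were separate in the other 6. PSMA1, PSMA4, PSMA5, PSMA6 and PSMA7 had log2 fold changes between 0.28 (PSMA5) and 0.36 (PSMA4). The products of this ring stand in equal numbers in the barrel, but the mean FPKM over all 6 libraries ranged from 56.5 for PSMA5 to 419 for PSMA7, a 7.41-fold span.

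The beta ring genes rose as well, and the group holds the largest change of all members. All 10 tested PSMB genes passed, against 42.2% of all tested genes called higher, with a median log2 fold change of 0.38. After TMM scaling 8 of them were higher (80%, against 19.1% of all tested genes). The structural subunit genes PSMB1, PSMB2, PSMB3 and PSMB4 had log2 fold changes of 0.40, 0.34, 0.24 and 0.38. PSMB3 had the highest level of any member and the smallest change of the class, with 582, 609 and 632 FPKM in the siOXTR libraries, against 513, 509.8 and 520.4 FPKM in the siControl libraries (log2 fold change 0.24, SE 0.0540, adjusted p = 0.00259, limma). PSMB2 had the lowest level of the class, a mean of 39.2 FPKM over all libraries, 14.3-fold under PSMB3.

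The constitutive catalytic subunits differ in what they cleave after. PSMB5, the chymotrypsin-like subunit and the main target of the drug bortezomib, was at 116, 121 and 129 FPKM in the siOXTR libraries, against 84.6, 88.8 and 84.5 FPKM in the siControl libraries (log2 fold change 0.50, SE 0.0550, adjusted p = 1.23e-05, limma). PSMB7, the trypsin-like subunit, was at 232, 228 and 240.0 FPKM in the siOXTR libraries, against 162, 171 and 174 FPKM in the siControl libraries (log2 fold change 0.46, SE 0.0525, adjusted p = 1.57e-05, limma). PSMB6, the caspase-like subunit, was at 151, 153 and 143 FPKM in the siOXTR libraries, against 112, 124 and 120.2 FPKM in the siControl libraries (log2 fold change 0.32, SE 0.0556, adjusted p = 0.000408, limma). In each of them every siOXTR library was above every siControl library, as in 45.2% of all tested genes. The 3 calls held after TMM scaling, where 19.1% of all tested genes were higher.

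The immunoproteasome subunits were expressed in both groups, and all 3 rose, against 42.2% of all tested genes. Over all 6 libraries their mean levels ran from 72.0 FPKM (PSMB10) to 140.2 FPKM (PSMB8), beside 104 FPKM (PSMB5) to 201 FPKM (PSMB7) for the constitutive subunits. PSMB10, which replaces PSMB7, had the largest log2 fold change of all members, with 85.7, 88.5 and 81.1 FPKM in the siOXTR libraries, against 53.8, 66.4 and 56.6 FPKM in the siControl libraries (log2 fold change 0.53, SE 0.0728, adjusted p = 8.02e-05, limma). PSMB8, which replaces PSMB5, was at 153, 159.8 and 163 FPKM in the siOXTR libraries, against 122, 122 and 120.2 FPKM in the siControl libraries (log2 fold change 0.38, SE 0.0499, adjusted p = 5.18e-05, limma). PSMB9, which replaces PSMB6, was at 114, 123 and 122 FPKM in the siOXTR libraries, against 93.2, 102 and 102 FPKM in the siControl libraries (log2 fold change 0.27, SE 0.0563, adjusted p = 0.00137, limma). The groups were separate in each, and PSMB9 was the one of the 3 that did not pass after TMM scaling (log2 fold change 0.15, adjusted p = 0.064, limma). Their summed FPKM was 353, 371 and 367 in the siOXTR libraries, against 269, 290.3 and 279 in the siControl libraries.

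The balance between immunoproteasome and constitutive subunits was compared within each library, as a ratio of FPKM + 1, in which the scaling between libraries cancels nearly but not exactly because of the pseudocount. With a pseudocount of 0.01 the differences below were -0.12, -0.050 and 0.070. The log2 ratio of PSMB8 to PSMB5 was 0.40, 0.40 and 0.34 in the siOXTR libraries, against 0.53, 0.46 and 0.50 in the siControl libraries, a difference of -0.12 with all siOXTR libraries below all siControl libraries. For PSMB9 to PSMB6 it was -0.40, -0.31 and -0.23 in the siOXTR libraries, against -0.27, -0.29 and -0.24 in the siControl libraries, a difference of -0.050, and the groups overlapped. For PSMB10 to PSMB7 it was -1.43, -1.36 and -1.55 in the siOXTR libraries, against -1.57, -1.36 and -1.61 in the siControl libraries, a difference of 0.065, and the groups overlapped again. Exact two-sided permutation tests over the libraries gave p = 0.1, 0.5 and 0.6 for the 3 ratios, or 0.3, 0.6 and 0.6 after Benjamini-Hochberg adjustment, and 3 libraries against 3 allow no p below 0.1. These tests could therefore not pass a threshold of 0.05 whatever the size of the difference, and in the PSMB8 to PSMB5 ratio the difference was larger than the SD of either group (0.0359 in siOXTR and 0.0361 in siControl).

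Genes that act beside the immunoproteasome in MHC class I presentation were lower. Of a list of 14 such genes, 12 fell and 0 rose, with a median log2 fold change of -0.69, against 17.6% lower among all tested genes. ERAP2 and B2M did not pass, and after TMM scaling B2M did, so that 13 were then lower, against 24.5% of all tested genes. TAP1, which encodes a subunit of the transporter that moves proteasome products into the endoplasmic reticulum, was at 114, 117 and 114 FPKM in the siOXTR libraries, against 185, 204 and 183 FPKM in the siControl libraries (log2 fold change -0.72, SE 0.0554, adjusted p = 4.46e-07, limma). TAP2, its partner, was at 45.9, 45.6 and 44.6 FPKM in the siOXTR libraries, against 84.0, 89.0 and 71.8 FPKM in the siControl libraries (log2 fold change -0.83, SE 0.0707, adjusted p = 1.18e-06, limma). The chaperone genes TAPBP (tapasin) and CANX (calnexin) had the largest falls of the list, with log2 fold changes of -1.24 and -1.22. HLA-B and HLA-C, presenting molecules, had log2 fold changes of -0.62 and -0.62.

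**Figure D3:**
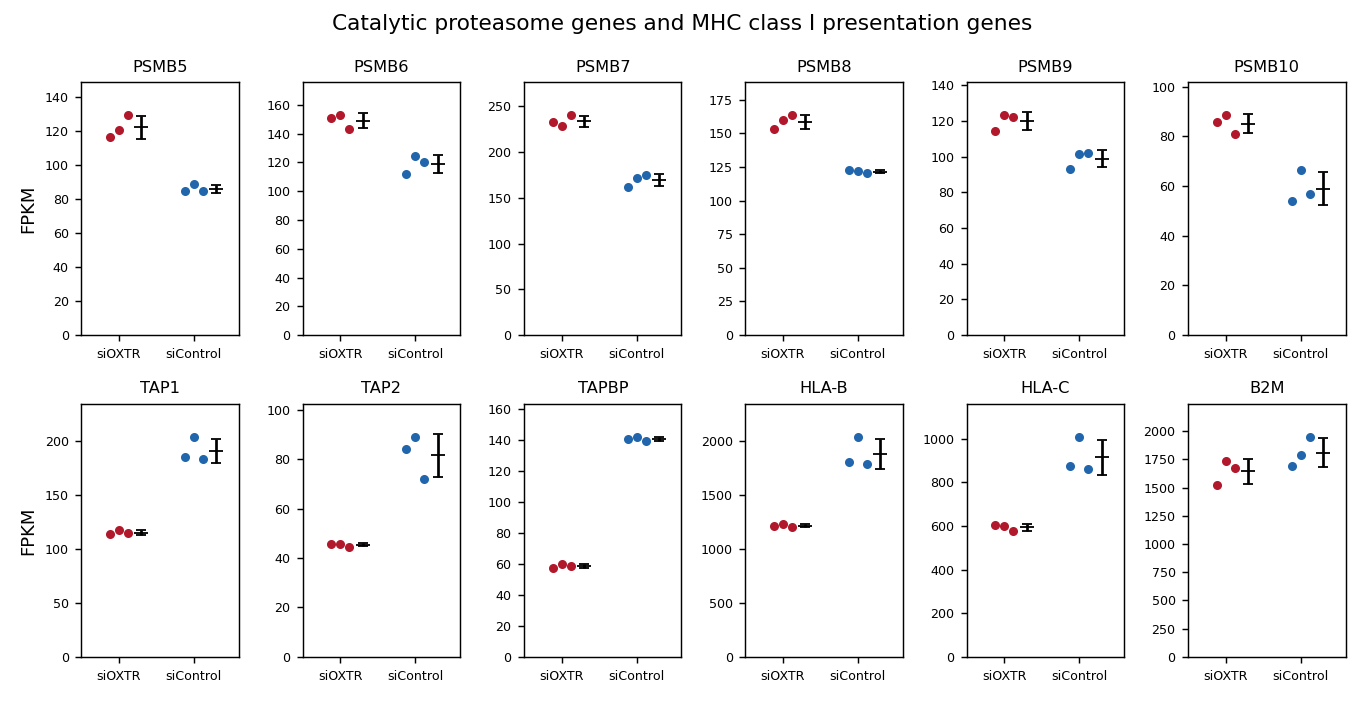
FPKM per library of the constitutive (PSMB5, PSMB6, PSMB7) and immunoproteasome (PSMB8, PSMB9, PSMB10) catalytic genes and of MHC class I presentation genes, siOXTR in red and siControl in blue, with the mean and SD of 3 libraries as a black bar. The 6 catalytic genes are higher in every siOXTR library, TAP1, TAP2, TAPBP, HLA-B and HLA-C are lower in every one, and B2M overlaps.

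PSMB9 and TAP1 are neighbours on chromosome 6 that are read in opposite directions from start sites 488 bases apart (RefSeq, GRCh38.p14), and the PSMB9 sequence printed above lies between the starts. TAP1 runs from 32845209 to 32853978 on the minus strand, PSMB8 from 32840717 to 32844703 on the minus strand and TAP2 from 32821833 to 32838780 on the minus strand (GENCODE release 29, GRCh38). The log2 ratio of PSMB9 to TAP1 within a library, again of FPKM + 1, was 0.0078, 0.070 and 0.10 in the siOXTR libraries, against -0.98, -0.995 and -0.84 in the siControl libraries, a difference of 0.996. That of PSMB8 to TAP2 was 1.72, 1.79 and 1.85 in the siOXTR libraries, against 0.54, 0.45 and 0.74 in the siControl libraries, a difference of 1.21. Both pairs were chosen after their values were seen, and in both the groups did not overlap (exact permutation p = 0.1, the smallest possible, for each). The longest annotated PSMB9 transcript, which starts at 32844136, crosses TAP1 and also overlaps PSMB8 up to 32844703, both on the other strand. Without a stated strand setting, reads from overlapping stretches cannot be told apart.

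The ATPase genes of the base had the highest median of the letter classes with several members. All 6 PSMC genes passed, against 42.2% of all tested genes called higher, with a median log2 fold change of 0.41. After TMM scaling 5 of them were higher (83.3%, against 19.1% of all tested genes). PSMC4, the ATPase bound by the chaperone PSMD10 during assembly, had the largest change, with 79.8, 83.4 and 83.8 FPKM in the siOXTR libraries, against 52.3, 61.9 and 58.1 FPKM in the siControl libraries (log2 fold change 0.51, SE 0.0628, adjusted p = 2.88e-05, limma). PSMC5, PSMC3, PSMC6 and PSMC2 followed with log2 fold changes of 0.47, 0.47, 0.35 and 0.31. PSMC1 had the smallest, with 63.6, 67.8 and 73.3 FPKM in the siOXTR libraries, against 61.5, 55.4 and 56.2 FPKM in the siControl libraries (log2 fold change 0.24, SE 0.0636, adjusted p = 0.00699, limma), and is the member with the most annotated pseudogenes, 13. Levels within this class were the closest of the rings, from 63.0 FPKM for PSMC1 to 149.5 FPKM for PSMC3 over all libraries, a 2.38-fold span. Differences between letter classes were not tested.

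The PSMD genes, which mix base, lid and chaperone proteins, included 2 of the 3 members that did not pass. Of 14 tested genes 12 rose (85.7%, against 42.2% of all tested genes), and the median log2 fold change was 0.27. After TMM scaling 6 of them were higher (42.9%, against 19.1% of all tested genes). The scaffold genes of the base, PSMD1 and PSMD2, which encode its largest subunits, had log2 fold changes of 0.18 and 0.22. PSMD4, a ubiquitin receptor of the base, was at 133, 134 and 152 FPKM in the siOXTR libraries, against 107, 106 and 115 FPKM in the siControl libraries (log2 fold change 0.35, SE 0.0627, adjusted p = 0.000594, limma). ADRM1, the other dedicated ubiquitin receptor, falls outside the symbol rule and was at 183, 177 and 163 FPKM in the siOXTR libraries, against 129.8, 155 and 137 FPKM in the siControl libraries (log2 fold change 0.31, SE 0.0690, adjusted p = 0.00226, limma). ADRM1 did not pass after TMM scaling (log2 fold change 0.18, adjusted p = 0.0515, limma).

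Of the 8 PSMD genes of the lid 7 rose (87.5%, against 42.2% of all tested genes). After TMM scaling 3 were higher (37.5%, against 19.1% of all tested genes). SEM1, a lid subunit outside the symbol rule, did not pass as deposited (log2 fold change 0.19, adjusted p = 0.0756, limma). It did not pass after TMM scaling either (log2 fold change 0.060, adjusted p = 0.611, limma). PSMD7, which pairs with the deubiquitinase PSMD14, had the largest change of the class, with 95.8, 99.8 and 107 FPKM in the siOXTR libraries, against 76.2, 70.9 and 81.0 FPKM in the siControl libraries (log2 fold change 0.40, SE 0.0628, adjusted p = 0.000197, limma). PSMD14, the enzyme that strips ubiquitin chains from substrates, was at 101, 107 and 112 FPKM in the siOXTR libraries, against 81.3, 76.8 and 91.2 FPKM in the siControl libraries (log2 fold change 0.36, SE 0.0669, adjusted p = 0.000702, limma). PSMD13 did not pass, with 133, 133 and 136 FPKM in the siOXTR libraries, against 119, 130.1 and 132 FPKM in the siControl libraries (log2 fold change 0.079, SE 0.0551, adjusted p = 0.231, limma). Its siOXTR libraries lay above the siControl libraries by a margin smaller than the spread of the controls, and its log2 fold change was -0.049 after TMM scaling. PSMD8, PSMD3, PSMD6, PSMD11 and PSMD12, the other scaffold subunits of the lid, had log2 fold changes between 0.25 and 0.34.

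Of the 3 PSMD chaperones that assemble the ATPase ring, PSMD9 and PSMD10 rose (66.7%, against 42.2% of all tested genes). Both kept their calls after TMM scaling, where 19.1% of all tested genes were higher. PAAF1, another chaperone of that ring outside the symbol rule, was higher too (log2 fold change 0.17, adjusted p = 0.0295, limma). PAAF1 did not pass after TMM scaling (log2 fold change 0.046, adjusted p = 0.576, limma). PSMD10 (gankyrin) was at 40.7, 42.5 and 47.4 FPKM in the siOXTR libraries, against 34.2, 33.7 and 32.1 FPKM in the siControl libraries (log2 fold change 0.37, SE 0.0625, adjusted p = 0.000346, limma), and PSMD9, the least abundant tested member, at 11.7, 11.5 and 12.8 FPKM in the siOXTR libraries, against 9.15, 9.40 and 9.51 FPKM in the siControl libraries (log2 fold change 0.33, SE 0.0620, adjusted p = 0.000836, limma). PSMD5, which binds the ATPase PSMC2 during assembly, did not pass and had the lowest log2 fold change of the class, with 23.1, 21.4 and 21.9 FPKM in the siOXTR libraries, against 20.4, 20.4 and 21.9 FPKM in the siControl libraries (log2 fold change 0.079, SE 0.0567, adjusted p = 0.244, limma). The log2 fold change of PSMD5 was -0.044 after TMM scaling. The PSMD5 groups overlapped, and those of PSMD9 and PSMD10 did not.

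Of the 4 core assembly chaperones 3 rose (75%, against 42.2% of all tested genes). After TMM scaling PSMG3 alone kept its call (25%, near the 19.1% of all tested genes). PSMG1 and PSMG2 form one heterodimer that guides the alpha ring, and PSMG3 and PSMG4 form the other. PSMG3 was at 51.2, 50.4 and 54.5 FPKM in the siOXTR libraries, against 37.1, 41.1 and 38.2 FPKM in the siControl libraries (log2 fold change 0.41, SE 0.0570, adjusted p = 7.89e-05, limma), and PSMG4 at 25.5, 30.6 and 27.3 FPKM in the siOXTR libraries, against 21.3, 24.5 and 19.5 FPKM in the siControl libraries (log2 fold change 0.34, SE 0.0842, adjusted p = 0.00419, limma). PSMG1 passed narrowly, with 47.5, 46.7 and 48.2 FPKM in the siOXTR libraries, against 42.3, 43.9 and 44.4 FPKM in the siControl libraries (log2 fold change 0.12, SE 0.0496, adjusted p = 0.0496, limma), and its log2 fold change was -0.0036 after TMM scaling. It lost its call when any library but siControl replicate 3 was left out (log2 fold change 0.10 to 0.13). PSMG2 was at 51.0, 54.7 and 60.4 FPKM in the siOXTR libraries, against 51.5, 53.8 and 60.1 FPKM in the siControl libraries (log2 fold change 0.0062, SE 0.0720, adjusted p = 0.946, limma), its groups covered the same range, and its log2 fold change was -0.12 after TMM scaling. POMP, the chaperone of the beta ring, was at 63.2, 68.2 and 70.0 FPKM in the siOXTR libraries, against 54.8, 59.6 and 66.5 FPKM in the siControl libraries, and it too did not pass (log2 fold change 0.15, adjusted p = 0.0748, limma), but passed without siControl replicate 3 (0.23, adjusted p = 0.00971, limma) or siOXTR replicate 1 (0.20, adjusted p = 0.0478, limma).

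All 4 activator genes rose, against 42.2% of all tested genes. After TMM scaling 1 of them, PSME2, kept its call (25%, near the 19.1% of all tested genes). PSME2, the beta subunit of the interferon-inducible PA28 activator, was at 455, 481 and 464 FPKM in the siOXTR libraries, against 344, 379 and 329.6 FPKM in the siControl libraries (log2 fold change 0.41, SE 0.0616, adjusted p = 0.000153, limma). PSME1, its alpha partner, was at 383, 393 and 413 FPKM in the siOXTR libraries, against 342, 337 and 337 FPKM in the siControl libraries (log2 fold change 0.23, SE 0.0525, adjusted p = 0.00298, limma). Both were among the most abundant members. PSME3, which forms a nuclear activator of its own, was at 53.9, 51.8 and 56.0 FPKM in the siOXTR libraries, against 48.8, 48.5 and 47.1 FPKM in the siControl libraries (log2 fold change 0.16, SE 0.0517, adjusted p = 0.0184, limma), and did not pass without siOXTR replicate 1 or without siOXTR replicate 3 (log2 fold changes 0.16 and 0.13, adjusted p = 0.0502 and 0.0943, limma). PSME4, the large nuclear activator PA200, was at 15.3, 14.5 and 13.9 FPKM in the siOXTR libraries, against 13.3, 11.9 and 11.9 FPKM in the siControl libraries (log2 fold change 0.22, SE 0.0648, adjusted p = 0.0116, limma), and did not pass without siOXTR replicate 1 (log2 fold change 0.19, adjusted p = 0.0543, limma). PSMF1 was at 23.9, 23.1 and 23.4 FPKM in the siOXTR libraries, against 16.8, 19.6 and 17.5 FPKM in the siControl libraries (log2 fold change 0.37, SE 0.0623, adjusted p = 0.000358, limma), with all siOXTR libraries above all siControl libraries.

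The regulators of proteasome transcription did not move as one. NFE2L1 was at 22.1, 19.9 and 20.8 FPKM in the siOXTR libraries, against 54.9, 51.7 and 48.1 FPKM in the siControl libraries (log2 fold change -1.26, SE 0.0628, adjusted p = 9.08e-09, limma). The groups were far apart, with a mean of 20.9 ± 1.14 FPKM in siOXTR and 51.6 ± 3.39 FPKM in siControl (SD, n = 3 each). NFE2L2, the relative held in check by KEAP1, was higher, with 61.6, 63.6 and 61.0 FPKM in the siOXTR libraries, against 46.7, 46.5 and 49.7 FPKM in the siControl libraries (log2 fold change 0.38, SE 0.0513, adjusted p = 7.42e-05, limma). The within-library log2 ratio of NFE2L2 to NFE2L1 (FPKM + 1), chosen after the values were seen, was 1.44, 1.63 and 1.51 in the siOXTR libraries, against -0.23, -0.15 and 0.047 in the siControl libraries (exact permutation p = 0.1, the smallest possible). Of the list of 10 genes, 5 rose (50%, near the 42.2% of all tested genes) and 1 fell. The number that rose was 3 after TMM scaling, equal FPKM sums or equal medians, and 3 without siControl replicate 2, siOXTR replicate 1 or siOXTR replicate 2. The largest rises as deposited were those of NFYC, a subunit of the CCAAT-binding factor NF-Y, and of MAFG, a DNA-binding partner of both NFE2L factors, with log2 fold changes of 0.44 and 0.42. DDI2, the protease that cleaves NFE2L1, had 0.18 (adjusted p = 0.0333, limma), but 0.061 after TMM scaling, where it did not pass (adjusted p = 0.458, limma). NGLY1, which removes its glycans, had 0.13 (adjusted p = 0.0906, limma).

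Related lists give the surroundings of these changes, and the differences between lists were not tested. The values given here beside genes and as list medians are log2 fold changes, and the counts stand beside 42.2% higher and 17.6% lower among all tested genes as deposited, and 19.1% higher and 24.5% lower after TMM scaling. Of 11 proteasome genes outside the symbol rule 6 rose (54.5%) and 0 fell (median 0.17), and 2 (18.2%) were higher after TMM scaling, shares near those of all tested genes. The largest changes were those of TXNL1, a thioredoxin-like partner of the regulatory particle, with 0.34, and of ADRM1. Of 11 ubiquitin precursor, activating and conjugating genes 8 rose (72.7%) and 1 fell (median 0.26), and 4 (36.4%) were higher after TMM scaling (median 0.14). The fall was in UBE2D2, at -0.42, and the largest rise in UBE2D3, at 0.40, both ubiquitin-conjugating enzymes. Of 12 genes of ubiquitin shuttles and of VCP, the unfoldase also called p97, and its cofactors, 8 rose (66.7%) and 1 fell (median 0.18), with VCP at 0.44 and UBXN1 at 0.33. After TMM scaling 2 of these were higher (16.7%, below the share of all tested genes; median 0.058), with equal FPKM sums 5, and without siOXTR replicate 1 or without siOXTR replicate 3 the number that fell was 0.

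Genes of other large complexes and of interferon signalling were listed too, again with log2 fold changes. Among all tested genes 42.2% were higher and 17.6% lower as deposited (median 0.13), and 19.1% were higher after TMM scaling. The COP9 signalosome, whose subunits are related to the lid, had all 9 genes higher (median 0.31) and 6 (66.7%) after TMM scaling. It was led by its catalytic subunit gene COPS5 at 0.45 and by COPS4 at 0.43. The CCT chaperonin, which folds actin and tubulin, had 7 of 8 genes higher (87.5%, median 0.19), with CCT7 at 0.25 and CCT5 at 0.24. After TMM scaling 0 of the CCT genes were higher, below the share of all tested genes. Of 11 interferon response regulators 7 rose (63.6%) and 2 fell (median 0.20), and 3 (27.3%) were higher after TMM scaling (median 0.077) and 4 with equal FPKM sums. NLRC5, the transactivator of MHC class I genes, had the largest rise at 0.54, and IFNGR1, a chain of the interferon gamma receptor, the largest fall at -0.86. IRF1, which induces immunoproteasome genes, was higher by 0.34.

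**Figure D4:**
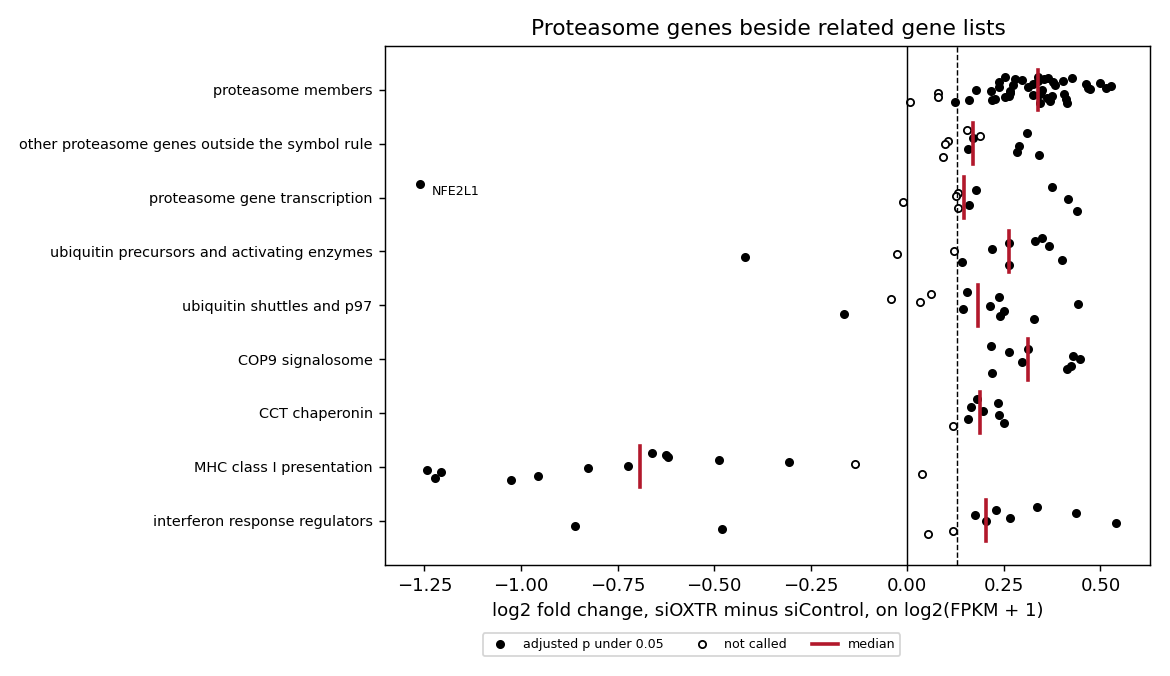
Log2 fold change, siOXTR minus siControl, on log2(FPKM + 1) of each proteasome gene and of each gene in the related lists, filled where the adjusted p was under 0.05, with the median of each list in red and that of all tested genes as a dashed line. The members centre on 0.34, the COP9 signalosome on 0.31 and the MHC class I list on -0.69, and NFE2L1 stands alone at -1.26 in its list. Values are as deposited. After TMM scaling, which is not drawn here, PSMD5, PSMD13, PSMG1 and PSMG2 were below 0.

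Some single values are less certain than their errors show. GENCODE release 29 names 30 pseudogenes after 10 members (PSMA2, PSMA6, PSMB3, PSMB7, PSMC1, PSMD4, PSMD7, PSMD8, PSMD10 and PSME2), and reads from such copies may be shared. An antisense gene is annotated for 4 members, PSMA3, PSMB8, PSMD6 and PSMG3, and reads of the 2 strands cannot be told apart where counting ignored strand.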

How the data were processed

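SNU216 RNA was sequenced as 3 siOXTR and 3 siControl libraries, and the labels' protocols name the BGISEQ-500 platform. The deposited values are FPKM, computed by the authors and given to 2 decimals per gene and library, per the file headers. Per the submitters' processing notes the build was GRCh38.p13. For the aligner, quantifier, annotation, strand setting and siRNA sequences, the sources used here give nothing. Depth is unknown: steps of whole fragments among low values were fitted with a coherence of 0.184 to 0.29 only, where 1 is perfect.

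Of 17318 genes, the 11550 that averaged 1 FPKM or more entered limma 3.58.1 (R 4.3.3) as log2(FPKM + 1), with group as the only term, a mean trend and a robust prior. P-values are two-sided and adjusted over all tested genes by Benjamini-Hochberg, with a threshold of 0.05. A fold change on this scale understates the change of low genes. FPKM are relative to a library total, so a fall in some genes raises others. TMM factors were computed on FPKM without weights, with trims of 0.3 and 0.05. The code was tested on simulated data. Alternatives were other pseudocounts, filters, scalings and variance priors, a replicate block, and leaving out each library. The members, the 10 gene lists and the motifs were chosen with earlier results of these data known. Values per library are given for the catalytic, activator, chaperone and ubiquitin-handling members and for the extremes of each letter class. Genes named from the lists are POMP, ADRM1, NFE2L1, NFE2L2 and the 2 largest called changes of each list. TAP1, TAP2, HLA-B, HLA-C, B2M, ERAP2, DDI2, NGLY1, MAFG, IRF1, SEM1 and PAAF1 were added after their values were seen. Promoters are from RefSeq (GRCh38.p14) and positions from GENCODE release 29.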

Additional observations from a re-analysis of the deposited data

How the results depend on the processing

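The count of 43 members higher became 27 after TMM scaling, 37 with equal FPKM sums and 41 with equal medians, and lay between 42 and 43 under other pseudocounts, filters, priors and the replicate block. Leaving out single libraries gave 40 to 43. The count of members lower was 0 under every alternative. The medians of all members, PSMA, PSMB, PSMC, PSMD, PSME, PSMG and the immunoproteasome subunits were 0.21, 0.21, 0.25, 0.28, 0.14, 0.10, 0.11 and 0.25 after TMM scaling, and 0.25, 0.25, 0.29, 0.32, 0.18, 0.14, 0.15 and 0.30 with equal FPKM sums. With equal medians PSMB and PSMC moved to 0.34 and 0.37. Without single libraries the medians ranged from 0.34 to 0.40 for PSMB, 0.38 to 0.44 for PSMC and 0.20 to 0.28 for PSMG. Log2 fold changes below 0 were seen for PSMD5 (-0.044 after TMM scaling, -0.0035 with equal sums), PSMD13 (-0.049 and -0.0066), PSMG1 (-0.0036 after TMM scaling) and PSMG2 (-0.12, -0.078 and, with equal medians, -0.033), and PSMG2 lay between -0.057 and 0.069 without single libraries. None of these passed the test, and in these data these scalings lowered siOXTR values relative to siControl values. Correlations of deviations from group means did not single out equal replicate numbers (0.107, 0.0042 and 0.16 for replicates 1, 2 and 3). In them siOXTR replicate 1 correlated best with siControl replicate 2. These few correlations do not settle whether libraries were paired. Among all tested genes 5100 were higher and 2105 lower with the replicate block, against 4869 and 2036 without it. With the replicate block 42 members were higher, 0 lower, PSMG1 lost its call (adjusted p = 0.0627, limma) and POMP gained one (adjusted p = 0.0221, limma). Depth is unknown, which limits what can be said of PSMB11.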

Other observations

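Symbols that begin like those of the members but go on after the number belong to other proteins and were left out of the counts. PSMC3IP, which encodes a meiotic recombination factor, was at 17.3, 18.3 and 18.8 FPKM in the siOXTR libraries, against 14.8, 12.4 and 13.6 FPKM in the siControl libraries (log2 fold change 0.39, SE 0.0688, adjusted p = 0.000486, limma). PSME3IP1, which encodes a protein that binds the PSME3 activator, was at 35.0, 35.6 and 36.7 FPKM in the siOXTR libraries, against 29.9, 28.0 and 29.1 FPKM in the siControl libraries (log2 fold change 0.30, SE 0.0524, adjusted p = 0.000491, limma). Both were higher in every siOXTR library than in any siControl library.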
